A study of Homo sapiens with 14 samples.

Results

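The proteasome subunit genes were taken as the protein-coding genes whose symbol begins with PSMA, PSMB, PSMC, PSMD, PSME or PSMG followed by a digit. There were 49 such genes among the 20046 protein-coding genes of the Gencode annotation used here (hg38). Of these, 45 held at least 1 C-to-U edit site on their own strand in at least 1 of 14 libraries, with 1091 sites at 1014 positions. The rule reads symbols alone, so it also took PSMC3IP and PSME3IP1, partners that are named after a subunit and are not part of the proteasome. For the same reason it leaves out subunits with other symbols, such as ADRM1 and SEM1.

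The proteasome is the barrel-shaped protease that degrades proteins tagged with ubiquitin. Its 20S core is made of stacked rings of alpha subunits (PSMA genes), which gate the entry, and of beta subunits (PSMB genes), some of which carry the cutting sites. A 19S cap holds a ring of ATPases (PSMC genes), which unfold substrates, and non-ATPase subunits (most PSMD genes), which bind and remove ubiquitin. Activators (PSME genes) can dock in place of the cap, and the products of PSMG genes, PSMD5, PSMD9 and PSMD10 are chaperones that help the particle assemble and then leave. Every growing cell makes proteasomes, and these transcripts are widely expressed.

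INSCRIBE marks the RNA near a protein in fixed cells. A nanobody fused to the cytidine deaminase APOBEC1 docks on the primary antibody and converts nearby C to U, which is read by sequencing. The protein here was RBFOX2, a nuclear splicing regulator that binds UGCAUG, written with T for U below. All cells were one human embryonic kidney line, HEK293T (also written HEK293XT in the labels), fixed in methanol on slides.

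RBFOX2 libraries came from cells given the anti-RBFOX2 antibody and the enzyme. Enzyme-only cells received the enzyme with no antibody, and Buffer-only cells received neither. At each RNA input, 1 ng and 100 pg of total RNA, there were 3 RBFOX2, 1 Enzyme-only and 3 Buffer-only libraries. Replicates are separate slides of this one line and technical by the account of the study, so a p-value here covers only the spread among them, and values of Enzyme-only libraries have no replicate error. Nothing was knocked out or induced, and the files hold sites rather than expression, so a transcript with less RNA and one with fewer edits cannot be told apart at positions where no site was called.

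A site is a position where some reads carry T for C, with the count of edited reads and of all reads. Libraries held 20330 to 42589 sites at 1 ng and 18650 to 27437 at 100 pg, from 48909 to 94871 and from 51526 to 103525 edited reads. Of these sites, 11057 to 31948 at 1 ng and 9728 to 17092 at 100 pg lay on the strand of an annotated gene. Replicate libraries shared between 2.84% and 5.85% of the positions of the smaller library, so none was a copy of another. The 10 genes listed for the line included the housekeeping genes GAPDH and ACTB, so they do not identify it. Of the 10, 8 held sites (233 in all, with PAX2 and LHX1 at 0), against 3 of 10 markers of other cell types (6 sites).

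The sequences that carry the main positions are given first, as 30 bases of unspliced hg38 sequence in DNA letters. They are on the RNA strand, 5′ to 3′, with the edited C in capitals. The first group is from PSMD12, which encodes a non-ATPase subunit of the lid of the 19S cap, on the minus strand of chromosome 17. These positions lay in its 3′UTR and were edited in 2 or more RBFOX2 libraries and in no Buffer-only library, and the first is the only position in all 49 genes that was edited in all 3 RBFOX2 libraries at 1 ng and in no Buffer-only library.
PSMD12, chr17:67339871-67339900: aaatggcaaaaagaCgtcaggccaccctca
PSMD12, chr17:67339483-67339512: aatgacatacagtaCtgaagtaatctgatt
PSMD12, chr17:67338221-67338250: gataacacttgattCcatttcattgtcatt
PSMD12, chr17:67339451-67339480: attctttggaaattCaatgcattggtcaca
PSMD12, chr17:67339958-67339987: tattgttccaaattCattatctctgtagga

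The second group is from PSMD14, the deubiquitinase of the cap, and PSME3, a nuclear activator of the core, both on the plus strand. These positions recurred between RBFOX2 libraries and were in no Buffer-only library. The PSMD14 positions lay in coding sequence and the PSME3 position lay in the 3′UTR.
PSMD14, chr2:161408824-161408853: gtttcattcacaggCtgtagaagaagaaga
PSMD14, chr2:161318824-161318853: atatggacagacttCttagacttggaggag
PSMD14, chr2:161371183-161371212: ttgttggttggtatCacagtcaccctggct
PSME3, chr17:42842486-42842515: ttgcaagagcttgaCtcctggttgcctttt

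The next group shows edited positions of RBFOX2 libraries with the RBFOX2 motif TGCATG inside the window, also in capitals. PSME3 and PSMD1 carried it in the 3′UTR, and PSME4 (minus strand) and PSMA3 in coding sequence.
PSME3, chr17:42842661-42842690: tatgTGCATGcacaCacgtgcatatacaca
PSMD1, chr2:231172616-231172645: ttcaaTGCATGtatCgttgcctctgcactg
PSME4, chr2:53866833-53866862: ctggggtgctaggaCttggTGCATGtgttc
PSMA3, chr14:58257953-58257982: TGCATGcatatacaCtctacagtgctgtta

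The last sequence, from an intron of PSMA8 on the plus strand, is shown because its C was the most widely edited position of the 49 genes, in 8 of 14 libraries, a Buffer-only library among them.
PSMA8, chr18:26169164-26169193: tagagatggggcttCgccatgttgcccaag

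At the first PSMD12 position, 4 of 129, 6 of 149 and 2 of 122 reads were edited in the RBFOX2 libraries at 1 ng, or 3.10%, 4.03% and 1.64% (95% Wilson intervals 1.21 to 7.70%, 1.86 to 8.51% and 0.451 to 5.78%). In the third RBFOX2 library at 100 pg, 7 of 117 reads were edited, or 5.98% (2.93 to 11.8%). No site was called there in the Enzyme-only or Buffer-only libraries, whose depth at the position is unknown, since the files list a position only where it was called. These intervals overlap one another, and intervals here cover counting error only, because reads without molecular identifiers can be copies of 1 molecule.

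The other PSMD12 positions had 2 to 9 edited reads in each library that called them. At the second, 5 of 152 and 3 of 136 reads were edited in RBFOX2 libraries 2 and 3 at 1 ng, and 9 of 120 in library 3 at 100 pg. In PSMD14, the second position had 3 of 94 edited reads in 1 RBFOX2 library at 1 ng and 13 of 53 (24.5%, 14.9 to 37.6%) in another at 100 pg. These intervals, the first being 1.09 to 8.97%, did not overlap. At the PSMA8 position the coverage was only 5 to 13 reads, and 7 of 13 were edited in a Buffer-only library at 1 ng (53.8%, 29.1 to 76.8%), so a site was called there without antibody or enzyme.

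Over all 49 genes, RBFOX2 libraries held more sites than Buffer-only libraries at both inputs. At 1 ng the RBFOX2 libraries held 110, 146 and 114 sites in these genes, the Enzyme-only library 120, and the Buffer-only libraries 48, 44 and 39. At 100 pg they held 103, 97 and 82, the Enzyme-only library 79, and the Buffer-only libraries 34, 47 and 28. At each input the lowest RBFOX2 library was above the highest Buffer-only library, and the Enzyme-only library lay above all Buffer-only libraries at both inputs. At 1 ng it also lay within the range of the RBFOX2 libraries, and at 100 pg it lay just below it.

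The mean at 1 ng was 123 ± 19.7 sites in RBFOX2 and 43.7 ± 4.51 in Buffer-only libraries (SD, n = 3 each), a ratio of 2.82. All sites on the strand of a gene gave a ratio of 2.64. At 100 pg the means were 94.0 ± 10.8 and 36.3 ± 9.71 sites (SD, n = 3 each), a ratio of 2.59, against 1.63 for all sites on the strand of a gene. On the strand opposite to these genes, the ratios were 1.08 at 1 ng and 1.15 at 100 pg, with 37 to 49 and 36 to 50 sites per library. The excess over Buffer-only libraries was thus on the gene strand, while the ratio on the opposite strand was near 1. Because these are sums over chosen genes, they were not tested.

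**Figure D1:**
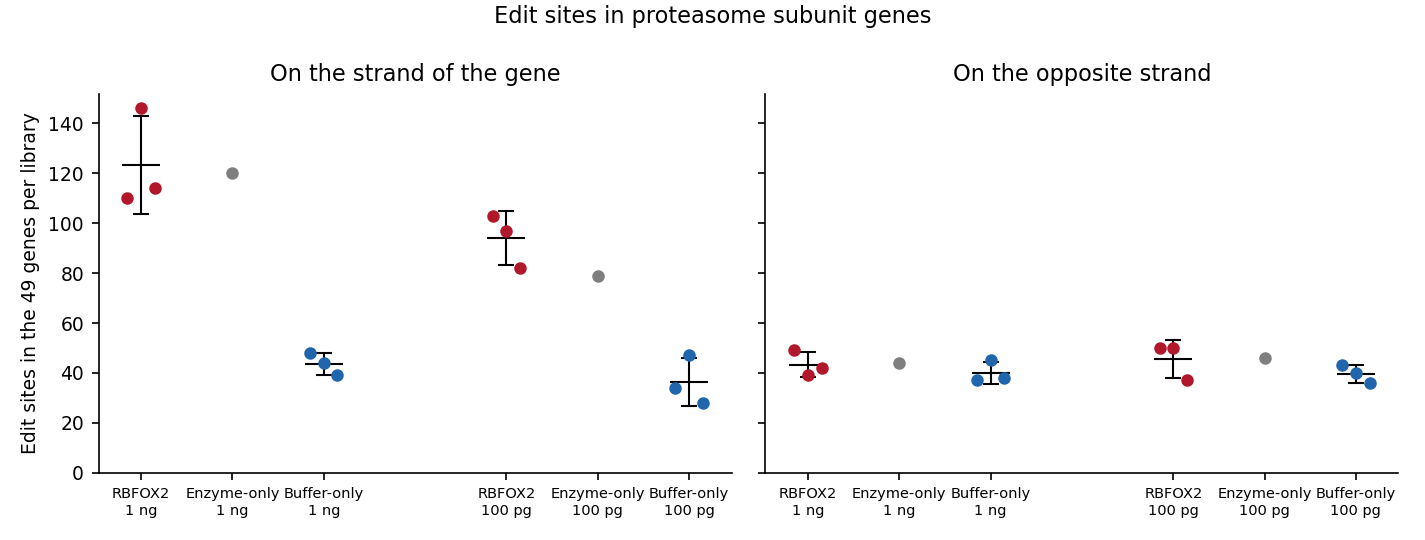
Edit sites in the 49 proteasome subunit genes, on the strand of the gene (left) and on the opposite strand (right), in each of 14 libraries. Points are libraries, horizontal bars the mean and error bars the SD (n = 3). RBFOX2 libraries hold 82 to 146 sites on the gene strand and Buffer-only libraries 28 to 48, while all groups hold 36 to 50 on the opposite strand.

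As a share of all sites on the strand of a gene, the 49 genes held 0.394 ± 0.0589% in RBFOX2, 0.441% in Enzyme-only and 0.371 ± 0.0584% in Buffer-only libraries at 1 ng (SD, n = 3, 1 and 3). The ranges of RBFOX2 (0.357 to 0.462%) and Buffer-only libraries (0.319 to 0.434%) overlapped. At 100 pg the shares were 0.553 ± 0.0674% in RBFOX2, 0.528% in Enzyme-only and 0.346 ± 0.0824% in Buffer-only libraries. There the ranges did not overlap, with 0.480 to 0.612% in RBFOX2 and 0.288 to 0.441% in Buffer-only libraries. At 1 ng, then, sites of these genes moved much as the sites of all genes did, and at 100 pg they took a larger share in each RBFOX2 library. Shares of this kind also depend on how deeply these transcripts were read, and that was not tested.

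Sites of proteasome genes were covered by more reads than most. The median coverage of a site in these genes was 32.5 to 94.5 reads per library at 1 ng and 57 to 118 at 100 pg, against 20 to 22 and 20 to 27 reads over all genes. The median percent of reads edited was lower, 2.35 to 4.59% in these genes over the 14 libraries against 6.25 to 7.69% over all genes. Sites carried 2.29 ± 0.217 edited reads each in RBFOX2 and 1.90 ± 0.221 in Buffer-only libraries at 1 ng, and more at 100 pg, with 5.23 ± 0.461 in RBFOX2 and 3.87 ± 0.373 in Buffer-only libraries (SD, n = 3 each). Counted as edited reads, the ratios of RBFOX2 to Buffer-only were 3.40 at 1 ng and 3.51 at 100 pg, and those of Enzyme-only to Buffer-only were 3.52 at 1 ng and 3.30 at 100 pg. Over the edited reads of all genes, the ratios of RBFOX2 to Buffer-only were 2.58 and 2.53, and those of Enzyme-only to Buffer-only 2.28 and 2.18. The ratios of RBFOX2 to Buffer-only in proteasome genes rest on 260 to 299 reads per RBFOX2 library against 79 to 88 per Buffer-only library at 1 ng, and on 472 to 504 per RBFOX2 library against 109 to 164 per Buffer-only library at 100 pg.

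The sites were spread thinly over many genes. Between 32 and 38 of the 49 genes held a site in each RBFOX2 library, 38 and 33 in the Enzyme-only libraries, and 19 to 26 in the Buffer-only libraries. The 10 genes with the most sites held 501 of 1091 (45.9%), the other 35 genes with a site held 4 to 36 each, 11 of them 10 or fewer, and PSMB8, PSMB9, PSMB11 and PSMD5 held none in any library. PSMB8 and PSMB9 encode inducible beta subunits of the immunoproteasome, and PSMB11 a beta subunit of the thymus. PSMB10, the remaining inducible beta subunit, held 4 sites, all of them inside the span of another gene of the same strand. In all, 95 sites of 7 genes lay in such shared spans (27 of PSMA1, 23 of PSMA6, 20 of PSMA3, 11 of PSMD9, 9 of PSMA2, 4 of PSMB10 and 1 of PSMC2), and 17 genes have pseudogenes by symbol, so their counts are less certain.

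By role, the non-ATPase subunits of the cap held the most sites, with no correction for length or read depth here or below. Their 11 genes held 50 ± 9.85 sites in RBFOX2, 34 in Enzyme-only and 17.0 ± 4.36 in Buffer-only libraries at 1 ng, and 32.0 ± 6.56 in RBFOX2, 25 in Enzyme-only and 12.7 ± 7.02 in Buffer-only libraries at 100 pg (SD over 3 libraries). The 8 alpha genes held 17.7 ± 8.74 sites in RBFOX2, 26 in Enzyme-only and 5.33 ± 1.53 in Buffer-only libraries at 1 ng, and 22.3 ± 2.08 in RBFOX2, 17 in Enzyme-only and 7 ± 3.46 in Buffer-only libraries at 100 pg. The 7 constitutive beta genes held 11 ± 6.25 sites in RBFOX2, 13 in Enzyme-only and 2.33 ± 1.53 in Buffer-only libraries at 1 ng, and 12 ± 3.46 in RBFOX2, 13 in Enzyme-only and 7.33 ± 2.89 in Buffer-only libraries at 100 pg. These 3 classes hold most of the sites, and each had a higher mean in RBFOX2 than in Buffer-only libraries at both inputs.

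The 6 ATPase genes held 12.7 ± 3.51 sites in RBFOX2, 19 in Enzyme-only and 4.67 ± 2.89 in Buffer-only libraries at 1 ng, and 6.33 ± 3.79 in RBFOX2, 7 in Enzyme-only and 4.33 ± 1.53 in Buffer-only libraries at 100 pg. The 4 activator genes held 14.3 ± 3.06 sites in RBFOX2, 15 in Enzyme-only and 5 ± 1 in Buffer-only libraries at 1 ng, and 9 ± 2.65 in RBFOX2, 7 in Enzyme-only and 1.67 ± 0.577 in Buffer-only libraries at 100 pg. The 7 chaperone genes held 14 ± 1.73 sites in RBFOX2, 11 in Enzyme-only and 5 ± 1 in Buffer-only libraries at 1 ng, and 11 ± 3.46 in RBFOX2, 9 in Enzyme-only and 2.33 ± 2.52 in Buffer-only libraries at 100 pg. The ratio of RBFOX2 to Buffer-only ran between 2.71 (ATPases) and 4.71 (beta genes) at 1 ng, and between 1.46 (ATPases) and 5.40 (activators) at 100 pg. The order of classes by ratio was thus not the same at the 2 inputs, and the SD of the ATPase genes in RBFOX2 libraries at 100 pg was wider than the difference from Buffer-only libraries. PSMC3IP and PSME3IP1 together averaged 3.33 sites in RBFOX2 and 4 in Buffer-only libraries at 1 ng, and 1.33 in RBFOX2 and 0.667 in Buffer-only libraries at 100 pg.

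**Figure D2:**
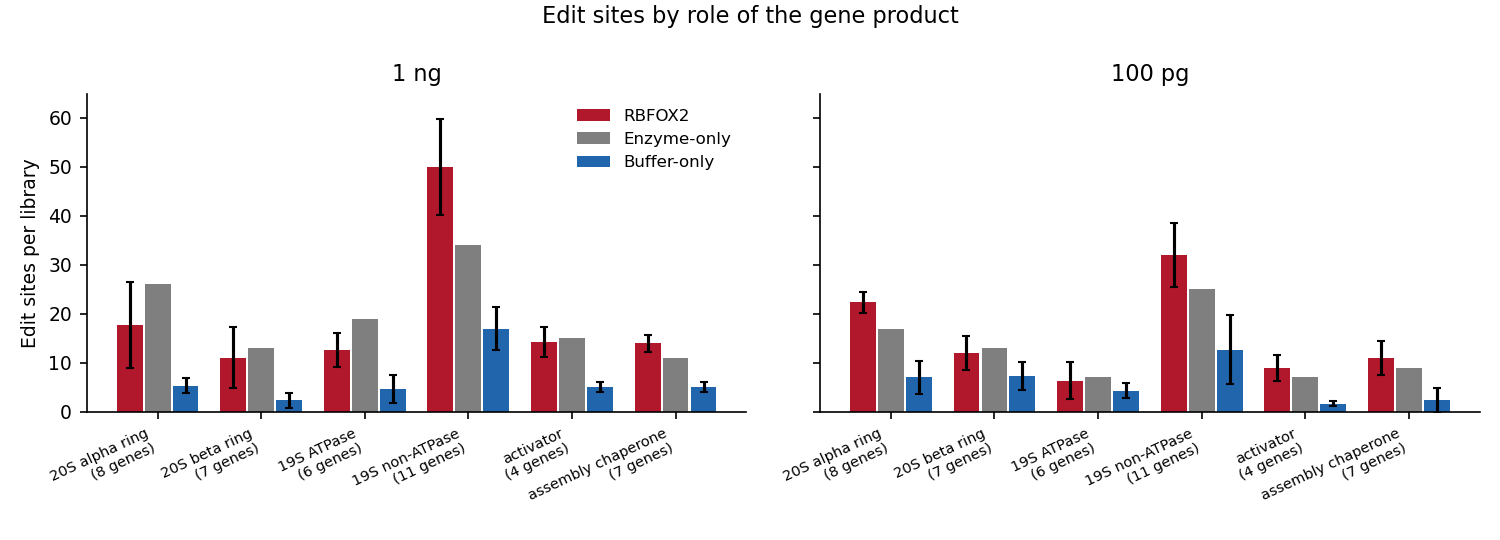
Mean edit sites per library at 1 ng (left) and 100 pg (right) for each class of proteasome gene, with the number of genes in brackets. Bars are the group mean and error bars the SD of 3 libraries, with a single library for Enzyme-only. The 11 non-ATPase genes of the cap hold 50 sites in RBFOX2 and 17.0 in Buffer-only libraries at 1 ng.

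PSMD12 held the most sites of all, 82, on chr17:67337916-67366605. At 1 ng its RBFOX2 libraries held 13, 12 and 19 sites, the Enzyme-only library 7 and the Buffer-only libraries 4, 0 and 2. At 100 pg its RBFOX2 libraries held 5, 5 and 6 sites, the Enzyme-only library 2 and the Buffer-only libraries 2, 3 and 2. The RBFOX2 libraries lay above all others at each input, and the exact permutation test over libraries gave p = 0.1 at both, the smallest that 3 against 3 allows. Without PSMD12 the ratio over the remaining genes was 2.61 at both inputs.

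PSME3, the nuclear activator, on chr17:42824385-42843760, held 55 sites. Its counts were 7, 8 and 10 in RBFOX2, 5 in Enzyme-only and 4, 2 and 2 in Buffer-only libraries at 1 ng, and 2, 5 and 3 in RBFOX2, 5 in Enzyme-only and 0, 1 and 1 in Buffer-only libraries at 100 pg. Here too RBFOX2 was above Buffer-only in each pairing of libraries at either input (exact permutation p = 0.1 at both), and the Enzyme-only library at 100 pg equalled the highest RBFOX2 library.

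PSMD14, the deubiquitinase, on chr2:161308425-161411717, held 50 sites, and its groups did not overlap at the lower input. At 100 pg its RBFOX2 libraries held 4, 4 and 7 sites, the Enzyme-only library 3 and the Buffer-only libraries 0, 0 and 1 (exact permutation p = 0.1). At 1 ng the counts of 3, 8 and 7 in RBFOX2, 5 in Enzyme-only and 3, 4 and 1 in Buffer-only libraries overlapped (p = 0.3, exact permutation). The difference between inputs in its RBFOX2 effect was -3.15 ± 1.40 on the log2 scale and did not pass (SE, edgeR interaction term, adjusted p = 0.833).

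PSMD1, the large scaffold subunit at the base of the cap, on chr2:231056845-231173116, held 49 sites, and its groups did not overlap at 1 ng. There its RBFOX2 libraries held 7, 11 and 7 sites, the Enzyme-only library 4 and the Buffer-only libraries 3, 2 and 2 (exact permutation p = 0.1). At 100 pg the RBFOX2 counts were 5, 0 and 0, the Enzyme-only count 5 and the Buffer-only counts 1, 2 and 0, which overlapped (exact permutation p = 1). The difference between inputs, 0.42 ± 1.39 on the log2 scale, did not pass (edgeR interaction term, adjusted p = 0.994).

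Among the core subunits, PSMA3 and PSMA1 (alpha ring) and PSMB2 (beta ring) held the most sites. PSMA3, with 56 in all, held 6, 8 and 2 sites in RBFOX2, 6 in Enzyme-only and 2, 1 and 3 in Buffer-only libraries at 1 ng, and 5, 6 and 7 in RBFOX2, 3 in Enzyme-only and 5, 1 and 1 in Buffer-only libraries at 100 pg. The groups overlapped or touched at both inputs (exact permutation p = 0.3 and 0.2). PSMA1, with 43, held 5, 4 and 1 in RBFOX2, 4 in Enzyme-only and 0, 0 and 2 in Buffer-only libraries at 1 ng, and 5, 9 and 4 in RBFOX2, 1 in Enzyme-only and 2, 3 and 3 in Buffer-only libraries at 100 pg. Its groups overlapped at 1 ng (exact permutation p = 0.2) and not at 100 pg (exact permutation p = 0.1). PSMB2, with 38, held 3, 8 and 1 in RBFOX2, 7 in Enzyme-only and 1, 0 and 2 in Buffer-only libraries at 1 ng, and 3, 4 and 1 in RBFOX2, 4 in Enzyme-only and 1, 1 and 2 in Buffer-only libraries at 100 pg, with overlap at each input (exact permutation p = 0.3 and 0.4).

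In PSMC2, an ATPase, the highest count of its 14 libraries was in an Enzyme-only library. It held 3, 8 and 2 sites in RBFOX2, 14 in Enzyme-only and 3, 1 and 1 in Buffer-only libraries at 1 ng, and 2, 3 and 0 in RBFOX2, 2 in Enzyme-only and 1, 6 and 1 in Buffer-only libraries at 100 pg. RBFOX2 and Buffer-only libraries overlapped at both inputs (exact permutation p = 0.3 and 0.8), and the Buffer-only library with 6 sites was the highest at 100 pg.

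PSMD11, a lid subunit, and PSMD2, a scaffold and ubiquitin receptor at the base, complete the 10 genes. PSMD11 held 2, 3 and 5 sites in RBFOX2, 4 in Enzyme-only and 0, 2 and 1 in Buffer-only libraries at 1 ng, and 7, 9 and 2 in RBFOX2, 1 in Enzyme-only and 2, 2 and 1 in Buffer-only libraries at 100 pg (exact permutation p = 0.2 and 0.3). PSMD2 held 1, 4 and 7 in RBFOX2, 5 in Enzyme-only and 2, 4 and 2 in Buffer-only libraries at 1 ng, and 3, 4 and 0 in RBFOX2, 2 in Enzyme-only and 0, 2 and 4 in Buffer-only libraries at 100 pg (exact permutation p = 0.7 and 1). In PSMD2 the groups overlapped at both inputs, and in PSMD11 they touched at a count of 2.

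**Figure D3:**
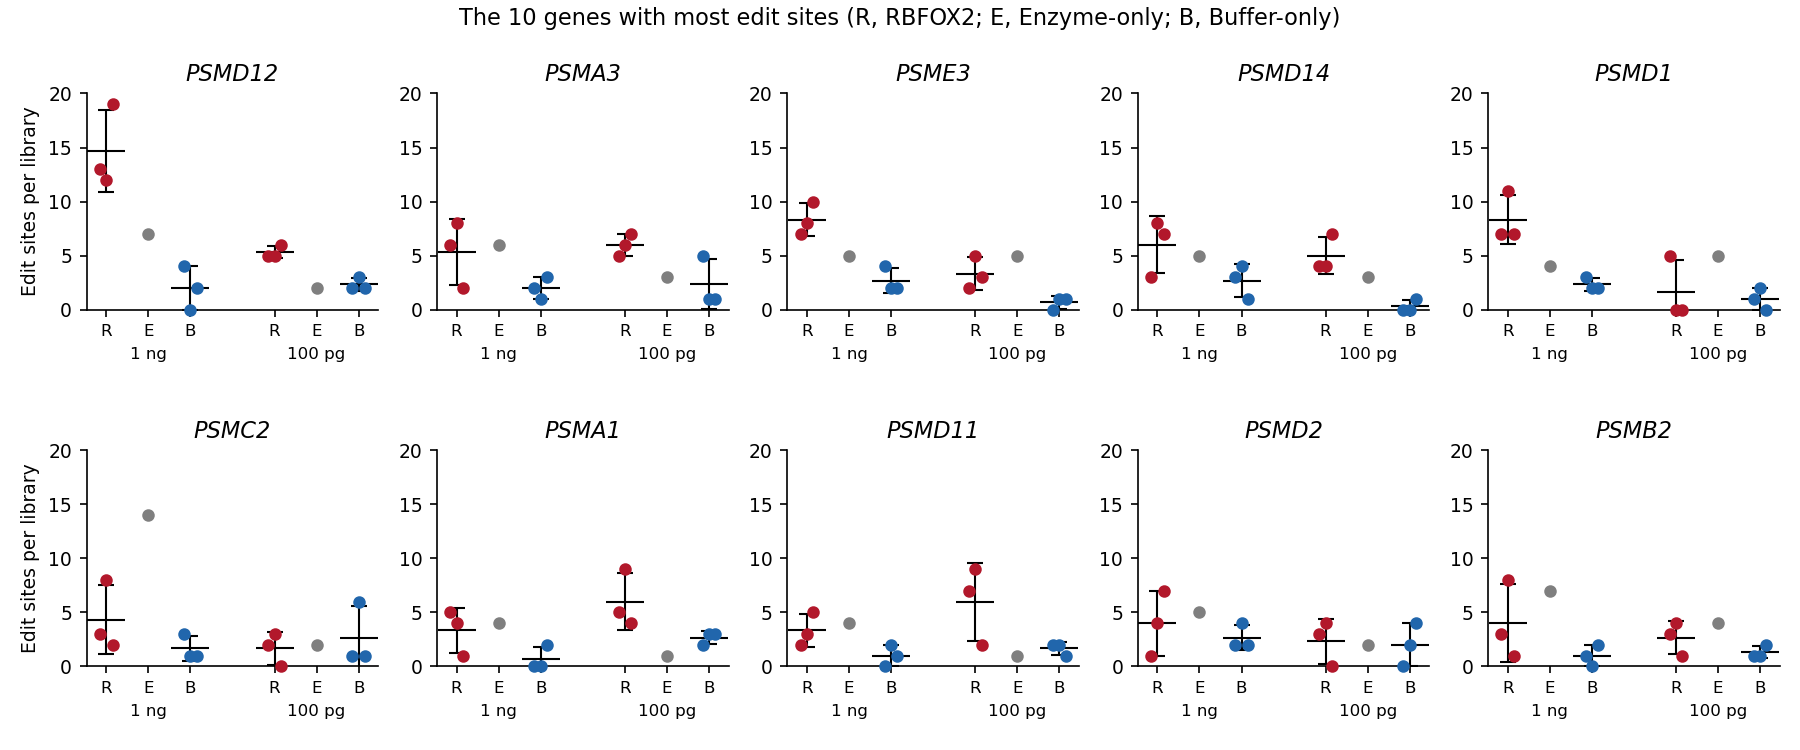
Edit sites per library in the 10 proteasome genes with the most sites, for RBFOX2 (R), Enzyme-only (E) and Buffer-only (B) libraries at each input. Points are libraries, horizontal bars the mean and error bars the SD (n = 3). In PSMD12 and PSME3 the RBFOX2 points lie wholly above the Buffer-only points at both inputs.

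Counted over all members, the RBFOX2 libraries lay wholly above the Buffer-only libraries in 9 of the 44 genes with a site at 1 ng. Over all genes with a site this held for 16.5%. That background takes in genes with few sites, while a gene needs a site in every RBFOX2 library to lie wholly above. It was not matched for sites per gene. The 9 were PSMA4, PSMB1, PSMC6, PSMD1, PSMD6, PSMD10, PSMD12, PSME3 and PSMG1, named after their values were seen, and 0 members lay wholly below (background 0.396%). After division by the sites on a gene strand in each library, 4 remained higher (PSMA4, PSMB1, PSMC6 and PSMD12, background 7.15%) and PSMD3 lay wholly lower (background 5.27%). PSMC6, an ATPase, held 7, 3 and 2 sites in RBFOX2, 2 in Enzyme-only and 0 in every Buffer-only library at 1 ng. At 100 pg it held 2, 2 and 1 in RBFOX2, 3 in Enzyme-only and 0, 0 and 1 in Buffer-only libraries. PSMD10, the chaperone known as gankyrin, held 8, 5 and 5 sites in RBFOX2, 1 in Enzyme-only and 1, 0 and 2 in Buffer-only libraries at 1 ng, and 2, 2 and 4 in RBFOX2, 5 in Enzyme-only and 0, 0 and 1 in Buffer-only libraries at 100 pg.

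At 100 pg, 10 of 45 genes with a site lay wholly higher in RBFOX2 libraries, where the background over all genes was 4.79%, and 0 lay wholly lower (background 0.65%). They were PSMA1, PSMA6, PSMA7, PSMC1, PSMD6, PSMD10, PSMD12, PSMD14, PSME3 and PSMG1. After the same division, all but PSMA1 were still wholly higher, 9 genes against a background of 3.87%, and PSMB6 was wholly lower (background 3.44%), with 1, 1 and 0 sites in RBFOX2 and 1 in each Buffer-only library. PSMD6, PSMD10, PSMD12, PSME3 and PSMG1 were in the unscaled lists of both inputs. Most of these counts are small: PSMA7 held 1, 2 and 2 sites in RBFOX2 and 0 in each Buffer-only library at 100 pg. As at 1 ng, the backgrounds were not matched for sites per gene or coverage, and sites of proteasome genes were covered more deeply. The gap from the background is therefore not a comparison of like genes.

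Whether any single gene differed was asked with edgeR's quasi-likelihood test on sites per gene, with p-values adjusted over all genes tested. With TMM scaling, no proteasome gene passed the threshold of 0.05 in any of the 3 comparisons. At 1 ng, 2508 genes were tested for RBFOX2 against Buffer-only, of which 0.837% were called higher (21 genes) and 0.399% lower (10 genes). Of the 9 members tested, 0 were called and 2 had an unadjusted p under 0.05. DESeq2 called 1 gene in all. Among these members it gave an adjusted p only for PSMD12 (DESeq2 adjusted p = 0.306), so it could not call the others. The median log2 fold change of the 9 members in edgeR was 0.32, beside 0.20 over all genes tested, and 6 of 9 were positive. Genes with too few sites in these same libraries were left out beforehand, so a gene can enter through the group where it is high.

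The 2 members with the smallest p at 1 ng had log2 fold changes of opposite sign. PSMD12 had a log2 fold change of 1.53 ± 0.61 (SE, n = 3 each), with an edgeR adjusted p of 0.192. PSMD3, a lid subunit, was named here after its value was seen. It held 1, 3 and 1 sites in RBFOX2, 4 in Enzyme-only and 3, 4 and 2 in Buffer-only libraries. Its log2 fold change was -2.05 ± 0.70 (edgeR adjusted p = 0.129). This is relative to the larger totals of the RBFOX2 libraries. On edited reads in place of sites, PSMD12 passed with a log2 fold change of 2.09 ± 0.62 (edgeR adjusted p = 0.0373), where 2.71% of 4359 genes were called higher and 1.15% lower. With no scaling for library totals, the median of all genes was 1.60 on the log2 scale, 46.9% of 2992 genes were called higher and 0.0668% lower, and 4 members were called higher, PSMD12, PSMD1, PSMD10 and PSME3.

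At 100 pg the sites were too few for most members. Of 874 genes tested, 1 was called higher (0.114%) and 0 lower, while 122 had an unadjusted p under 0.05, and DESeq2 called 0 genes. Only 4 members could be tested, PSMD14, PSMA3, PSMD12 and PSMA1, and 0 were called, with 1 under an unadjusted 0.05. All 4 were positive, with a median log2 fold change of 0.51 beside 0.13 over all genes. The 4 entered the test through their RBFOX2 counts, so a positive sign was largely set in advance and carries little weight. PSMD14 had a log2 fold change of 2.85 ± 1.24 (SE, n = 3 each, edgeR adjusted p = 0.283). Counts this low limit both tests, and a difference in these genes was not detectable at this depth rather than absent.

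The inputs were compared within the RBFOX2 libraries, 1 ng over 100 pg. Of 2562 genes tested, 0 were called, 241 had an unadjusted p under 0.05, and DESeq2 called 2 genes, none of them a member. Of 14 members tested, 0 were called and 2 had an unadjusted p under 0.05, and their median log2 fold change was -0.35, beside 0.11 over all genes. PSMA1 and PSMD11 were lowest, at -1.69 ± 0.66 and -1.69 ± 0.67 (edgeR adjusted p = 0.466 and 0.471). Both had more sites at 100 pg in spite of fewer sites in the library, with a mean of 3.33 sites per library at 1 ng and 6 at 100 pg in each gene, and neither difference passed. The difference between inputs in the RBFOX2 effect over Buffer-only was called in 0 of 2197 genes (117 with an unadjusted p under 0.05) and in 0 of 10 members.

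Genes that work with the proteasome were described beside it from a list of 29 genes, among them shuttling factors, ligases and deubiquitinases. The list also holds ADRM1 and SEM1, cap subunits that the symbol rule leaves out, so it is not made of partners alone. All 29 held sites, 920 in total. Of these, 10 could be tested at 1 ng, 4 at 100 pg and 12 between inputs, and 0 were called in each. Their median log2 fold changes for RBFOX2 over Buffer-only were -0.35 at 1 ng and -0.58 at 100 pg, while the proteasome genes tested gave 0.32 and 0.51. The difference between these lists was not tested, and the medians cover only genes with enough sites in the same libraries.

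Among the partners with the most sites were UBE3C and UCHL5. UBE3C, a ubiquitin ligase that binds the proteasome, held 8, 12 and 16 sites in RBFOX2, 8 in Enzyme-only and 3, 9 and 5 in Buffer-only libraries at 1 ng. UCHL5, a deubiquitinase of the cap, held 12, 16 and 9 in RBFOX2, 22 in Enzyme-only and 2, 2 and 3 in Buffer-only libraries at 1 ng. At 100 pg UBE3C held 5, 5 and 11 sites in RBFOX2, 5 in Enzyme-only and 8, 4 and 3 in Buffer-only libraries, and UCHL5 held 1, 6 and 5 in RBFOX2, 4 in Enzyme-only and 2, 2 and 1 in Buffer-only libraries. RBFOX2 and Buffer-only libraries did not overlap in UCHL5 at 1 ng, overlapped in UCHL5 at 100 pg and overlapped in UBE3C at both inputs, and the lowest edgeR adjusted p of a partner was 0.322 (UCHL5 at 1 ng). As in PSMC2, the Enzyme-only library had the highest UCHL5 count at 1 ng.

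Within the proteasome genes, coding sequence held more sites than any other region. Of 1091 sites, 472 (43.3%) were in coding sequence, 297 (27.2%) in 3′UTRs, 186 (17.0%) in introns, 91 (8.34%) in 5′UTRs and 45 (4.12%) in noncoding exons. At 1 ng the share in 3′UTRs was 29.7 ± 3.35% in RBFOX2, 27.5% in Enzyme-only and 25.8 ± 5.69% in Buffer-only libraries. At 100 pg it was 26.9 ± 1.14% in RBFOX2, 27.8% in Enzyme-only and 21.9 ± 4.25% in Buffer-only libraries (SD, n = 3, 1 and 3). The libraries overlapped at 1 ng, and at 100 pg the RBFOX2 libraries (25.6 to 27.8%) lay just above the Buffer-only libraries (17.0 to 25%), a gap within the Wilson interval of a single library.

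Over all genes, the share in 3′UTRs was 43.8 ± 0.374% in RBFOX2, 35.3% in Enzyme-only and 29.1 ± 0.482% in Buffer-only libraries at 1 ng, and 35.3 ± 0.676% in RBFOX2, 29.4% in Enzyme-only and 24.1 ± 0.624% in Buffer-only libraries at 100 pg. RBFOX2 libraries lay above Buffer-only libraries by more than the SDs. The share of sites of proteasome genes in 3′UTRs was lower in RBFOX2 libraries than that of all genes, and the share in coding sequence was higher, 42.8 ± 4.13% in proteasome genes against 20.5% in all genes at 1 ng, and 46.3 ± 2.08% against 23.0% at 100 pg. The shares over all genes take in sites of noncoding genes, which have no coding sequence or UTR, while all 49 members are protein-coding. Proteasome genes also have short 3′UTRs, with a median of 592 nt over 49 genes against 1322 nt over 19608 protein-coding genes. The part of the noncoding genes and of this length in the shares was not tested. The share in 3′UTRs depends on the transcripts used. With every coding transcript counted it was 56.2% in RBFOX2 and 47.1% in Buffer-only libraries at 1 ng, and 45.2% in RBFOX2 and 45.9% in Buffer-only libraries at 100 pg, where the order of the groups turned.

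Few sites of proteasome genes lay near the RBFOX2 motif. Distances were taken on unspliced genome sequence of the RNA strand, so a window near an exon end can reach into an intron. Within 50 nt of TGCATG were 7, 1 and 3 sites in RBFOX2, 3 in Enzyme-only and 2, 2 and 1 in Buffer-only libraries at 1 ng. At 100 pg there were 2, 3 and 2 sites in RBFOX2, 4 in Enzyme-only and 1, 0 and 0 in Buffer-only libraries. In shares, this was 3.23 ± 2.89% in RBFOX2, 2.5% in Enzyme-only and 3.76 ± 1.05% in Buffer-only libraries at 1 ng, which overlapped. At 100 pg it was 2.49 ± 0.577% in RBFOX2, 5.06% in Enzyme-only and 0.980 ± 1.70% in Buffer-only libraries, and these also overlapped, since 1 Buffer-only library had 2.94%.

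Over all genes, the share near the motif was 6.08 ± 0.177% in RBFOX2, 2.86% in Enzyme-only and 2.47 ± 0.154% in Buffer-only libraries at 1 ng, and 4.54 ± 0.043% in RBFOX2, 2.78% in Enzyme-only and 2.64 ± 0.086% in Buffer-only libraries at 100 pg. The excess of RBFOX2 libraries seen over all genes was not detectable in the proteasome genes at this number of sites. At 1 ng the Wilson intervals for single RBFOX2 libraries ran from 3.12 to 12.6% in the first and from 0.121 to 3.78% in the second. Without the first library the mean was 1.66%. In 3′UTRs the motif itself was about as common in these genes as elsewhere. There 15 of 49 (30.6%) held TGCATG, against 37.1% of 19608 protein-coding genes, with 0.348 and 0.321 motifs per kb. The motif was not counted in the other regions, which hold most of the sites of these genes.

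**Figure D4:**
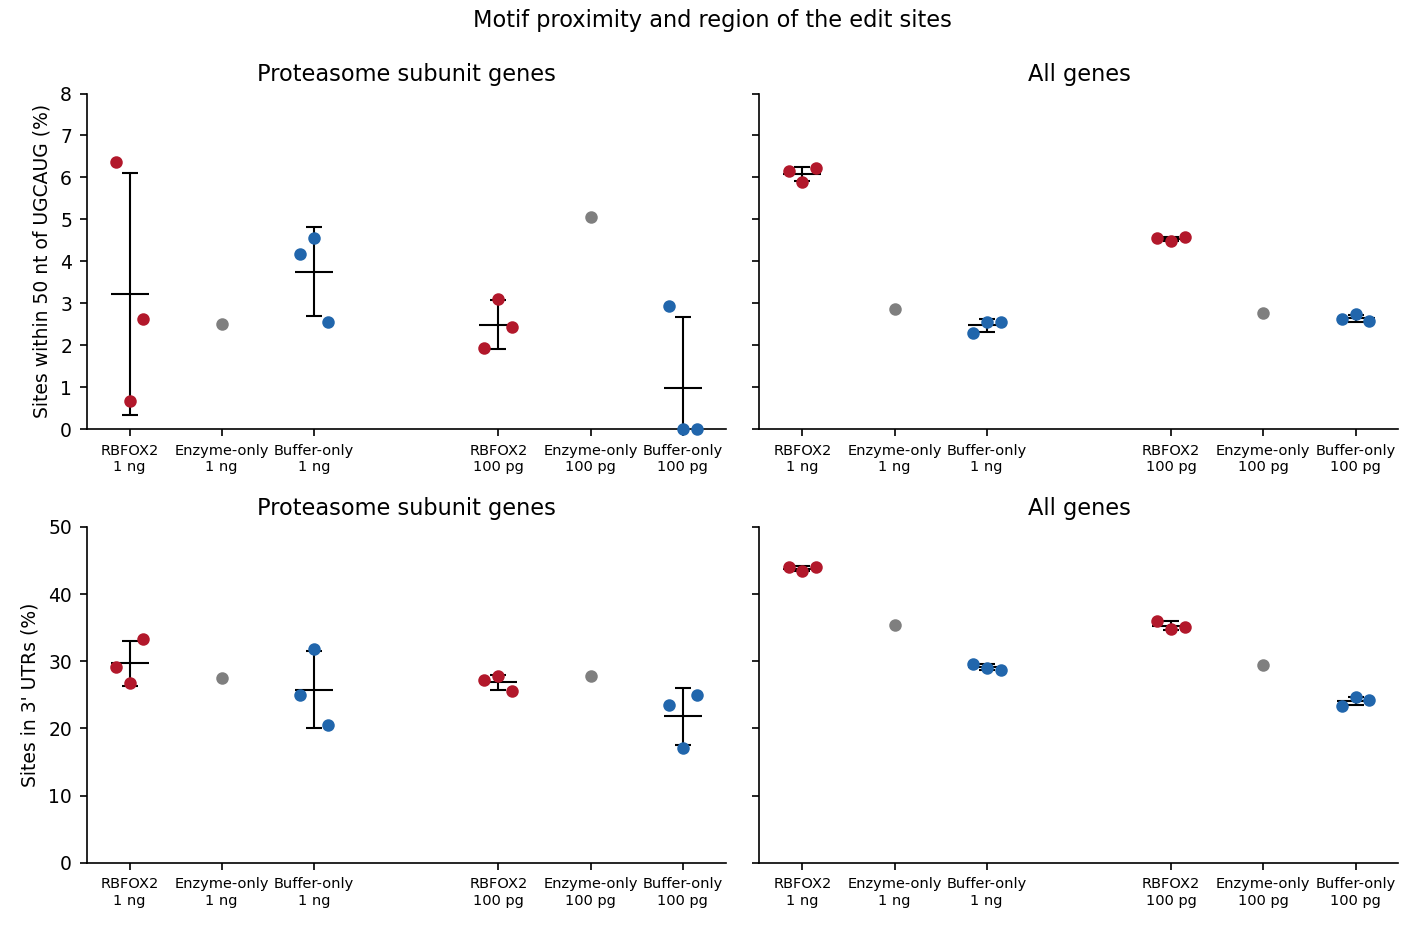
Percent of edit sites within 50 nt of TGCATG (top) and in 3′UTRs (bottom), for the 49 proteasome genes (left) and all genes (right), in each library. Points are libraries, horizontal bars the mean and error bars the SD (n = 3). Over all genes RBFOX2 libraries stand apart, at 6.08% near the motif and 43.8% in 3′UTRs at 1 ng, while in the proteasome genes the RBFOX2 and Buffer-only points overlap in all but the 3′UTR share at 100 pg.

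In all, 31 sites near the motif fell in 15 of the 49 genes, most in PSMD1 (6), PSMD6 (4) and PSME3 (3), and 18 of 652 sites of RBFOX2 libraries were among them. The PSME3 site printed above had 3 of 86 edited reads in the third RBFOX2 library at 100 pg. The PSMA3 site had 3 of 172 edited reads in an RBFOX2 library at 1 ng and 13 of 224 in another at 100 pg, and the PSMD1 site 2 of 99 in 1 library at 1 ng. The PSME4 site, in the gene of the large activator PA200, rested on a coverage of only 8 and 14 reads. None of these 4 positions was a site in a Buffer-only or Enzyme-only library. They were picked from sites of RBFOX2 libraries, and 94.0% of positions in proteasome genes were seen in 1 library only, so this absence carries little weight. Other sites near the motif were in Buffer-only libraries, at 1 ng in PSMD1, PSMD6, PSME3, PSMG3 and PSMG4 and at 100 pg in PSMA8. Enzyme-only libraries held such sites in PSMD1, PSMD11 and PSME2 at 1 ng and in PSMA8, PSMD1, PSMD4 and PSMG3 at 100 pg.

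The base before the edited C separated the groups. In proteasome genes it was A or T in 78.3 ± 5.21% of sites in RBFOX2, 80.0% in Enzyme-only and 49.9 ± 9.21% in Buffer-only libraries at 1 ng, and in 72.6 ± 9.15% in RBFOX2, 69.6% in Enzyme-only and 47.0 ± 2.95% in Buffer-only libraries at 100 pg (SD, n = 3, 1 and 3). No overlap was seen between RBFOX2 and Buffer-only libraries at either input. Over all genes the shares were 76.7% in RBFOX2, 72.7% in Enzyme-only and 47.9% in Buffer-only libraries at 1 ng, and 65.3% in RBFOX2, 60.0% in Enzyme-only and 47.5% in Buffer-only libraries at 100 pg. APOBEC1 is known to prefer a C that follows A or U. In proteasome genes the Enzyme-only library lay within the range of the RBFOX2 libraries at each input, while over all genes it lay below every RBFOX2 library and above every Buffer-only library. Among the printed positions of PSMD12, the base before the C was A at 2 of 5 and T at the rest.

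Most positions were seen once. Of 1014 positions in proteasome genes, 953 (94.0%) were edited in 1 library only, against 95.7% of 238030 positions over all genes. A set of 29 positions (2.86%) was edited in 2 or more RBFOX2 libraries and no Buffer-only library, against 1.92% over all genes. Only 1, the PSMD12 position described first, was edited in all 3 RBFOX2 libraries at 1 ng with no Buffer-only library (0.0986%, against 0.0546% over all genes, or 130 positions), and there was no such position at 100 pg. PSMC6 had a coding position edited in 2 RBFOX2 libraries at 1 ng and in the Enzyme-only library at 100 pg, named after its value was seen.

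Clusters are stretches that the authors called as enriched in edits within a library. In proteasome genes most can hold only 1 site. At 1 ng there were 95 clusters for 110 sites in RBFOX2 library 1 and 45 for 48 in Buffer-only library 1. Cluster counts therefore largely repeat the site counts above. At 1 ng the RBFOX2 libraries had 95, 119 and 90 clusters in proteasome genes, the Enzyme-only library 95 and the Buffer-only libraries 45, 42 and 38. At 100 pg they had 82, 79 and 70, the Enzyme-only library 67 and the Buffer-only libraries 29, 41 and 26. The RBFOX2 libraries lay above the Buffer-only libraries at each input, with ratios of 2.43 and 2.41, against 2.271 and 1.42 for the clusters of all genes. With FLARE scores of 0.99 or more the ratios in proteasome genes were 1.45 at 1 ng and 2.05 at 100 pg.

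The authors also deposited confident clusters, kept where clusters of the replicates met. The RBFOX2 list at 1 ng held 907 clusters, of which 6 were in proteasome genes, 5 in PSMD12 and 1 in PSME3. The list at 100 pg held 267, of which 3 were in these genes, 2 in PSMD14 and 1 in PSMA8. All 9 were also in the lists from which Buffer-only clusters had been removed. The Buffer-only lists of 250 and 102 clusters held none in these genes. As these genes held only 0.371% and 0.346% of gene-strand sites in Buffer-only libraries, a count of 0 in lists this short carries little weight. TGCATG was in 102 of 907 and 17 of 267 clusters, and in none of the 9 clusters of proteasome genes.

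The PSMD12 clusters lay together near the end of the gene. In its 3′UTR, a single exon of 2930 nt that holds no TGCATG, were the clusters chr17:67339477-67339611, chr17:67339792-67339836, chr17:67339867-67339911 and chr17:67339972-67340016, between 830 and 1369 nt beyond the end of the coding part. The fifth, chr17:67341007-67341051, was in the coding part of the last exon. Their mean coverage was 197 to 317 reads. The cluster chr17:67339792-67339836 held only 1 site, in RBFOX2 library 3 at 1 ng. Within the 5 clusters lay 5, 4 and 8 sites in RBFOX2, 1 in Enzyme-only and 2, 0 and 0 in Buffer-only libraries at 1 ng, so RBFOX2 libraries were higher in each case. At 100 pg there were 0, 0 and 2 sites in RBFOX2, 1 in Enzyme-only and 0, 0 and 1 in Buffer-only libraries, with overlap. As these clusters were chosen by the authors on the RBFOX2 libraries at 1 ng, their counts there are a description.

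Over the whole 3′UTR of PSMD12, the 3 RBFOX2 libraries at 1 ng held 27 of their 44 sites of the gene, the Enzyme-only library 3 of 7 and the Buffer-only libraries 2 of 6. At 100 pg they held 11 of 16, the Enzyme-only library 2 of 2 and the Buffer-only libraries 2 of 7. PSMD12 is a large part of the 3′UTR sites of the proteasome genes: without it, the share in 3′UTRs was 25.3% in RBFOX2 libraries at 1 ng and 24.2% at 100 pg.

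**Figure D5:**
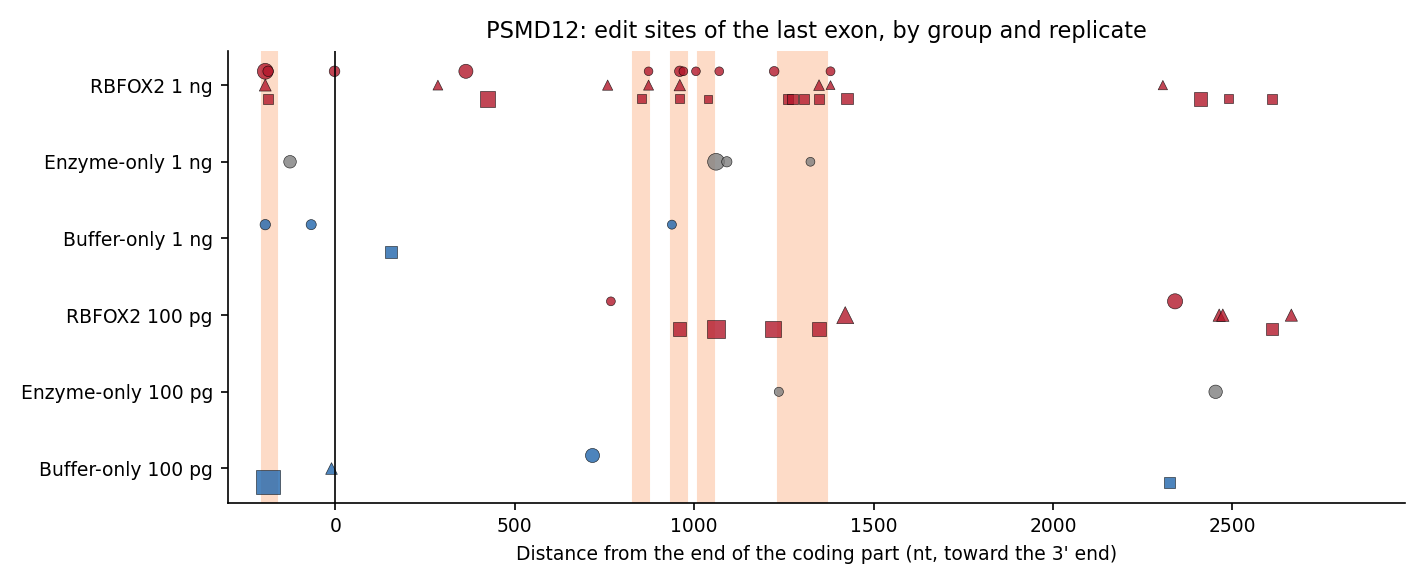
Edit sites in the last exon of PSMD12 by distance in nt from the end of the coding part (black line), with a row for each group and input. Marker shapes are replicates, larger markers have a higher percent of edited reads, and shading marks the 5 confident clusters of the RBFOX2 list at 1 ng. Within the shading are 17 sites of RBFOX2, 1 of Enzyme-only and 2 of Buffer-only libraries at 1 ng.

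The remaining confident clusters were single stretches. The PSME3 cluster, chr17:42842474-42842533, was in its 3′UTR with a mean coverage of 190.0 reads, and it holds the PSME3 position edited in 3 of 103 and 2 of 94 reads of RBFOX2 libraries 2 and 3 at 1 ng. This cluster held 0 sites in RBFOX2 library 1 at 1 ng and 1 site in Buffer-only library 3 at 100 pg. The PSMD14 clusters, chr2:161408849-161408893 and chr2:161411363-161411407, had mean coverages of 375 and 302 reads. The first of them starts downstream of the coding position edited in 4 of 94 and 2 of 89 reads of RBFOX2 libraries 1 and 2 at 100 pg. It held a site in only 1 RBFOX2 library at 100 pg, and the second held sites in 2.

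The PSMA8 cluster, chr18:26169150-26169194, differed from these in place and depth. It lay in an intron of an alpha subunit gene known from the testis, its mean coverage was 5.95 reads, and all 22 sites of PSMA8 lay outside its coding sequence and UTRs. PSMA8 held 1, 2 and 2 sites in RBFOX2, 3 in Enzyme-only and 1, 1 and 0 in Buffer-only libraries at 1 ng, and 1, 1 and 4 in RBFOX2, 5 in Enzyme-only and 1, 0 and 0 in Buffer-only libraries at 100 pg. The groups overlapped or touched at both inputs, and the Enzyme-only library was the highest at each.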

How the data were processed

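The authors trimmed adapters with cutadapt, removed reads of repeats, aligned the rest with STAR, version 2.4.0 per the processing notes of the submitters, on hg38, and called C-to-U sites with SAILOR, without known variants. The deposited site files give counts of edited and of all reads, an edit fraction and a score, and hold sites with a score above 0.5, a fraction up to 0.8 and a coverage of 5 reads or more. The deposited FLARE cluster files (false discovery rate 0.1, merge distance 15 nt) give counts, fractions, scores and mean depth as a signal, and the deposited confident lists give mean coverage as a signal. The low-input kit is not stated to keep strand, and the strand of a site was used as deposited, where the base is always C. No column of per-sample values was left unmapped.

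Sites were placed in Gencode 44 genes of the same strand, which is a later version than that of the authors, with regions of protein-coding transcripts ranked as 3′UTR, 5′UTR, coding, noncoding exon, intron, with Python 3.11.15, pandas 2.3.3, scipy 1.17.1 and pysam 0.24.0. Figures were drawn with matplotlib 3.10.9. Sites per gene were tested over all genes with edgeR 4.0.16 (R 4.3.3, TMM scaling, filterByExpr with min.count 3 and min.total.count 5, quasi-likelihood test, Benjamini-Hochberg adjustment), with DESeq2 1.42.0 as an alternative, after a test on simulated data. Single genes were also compared by an exact two-sided permutation test over libraries. Shares of 1 library and edited reads of 1 position carry 95% Wilson intervals. Named with values in every library were the 10 members with the most sites, any member called by edgeR on sites with TMM scaling, with a confident cluster, or with a position edited in all 3 RBFOX2 libraries of an input and no Buffer-only library, and the 3 partner genes with the most sites, of which 1 is not reported here. Members and lists were chosen with earlier results of these data known.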

Additional observations from a re-analysis of the deposited data

Results flagged for a closer look

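The Enzyme-only libraries, which have no replicates and enter no tested comparison, held more sites in proteasome genes than any Buffer-only library. At 1 ng the Enzyme-only library held 120 sites, against 39 to 48 in Buffer-only libraries. At 100 pg it held 79, against 28 to 47 in Buffer-only libraries. The share of these sites that follow A or T was 80.0% and 69.6% in the Enzyme-only libraries, against 43.2 to 60.4% in Buffer-only libraries at 1 ng and 44.1 to 50% at 100 pg. How much of the RBFOX2 counts came from enzyme not held by the antibody was not tested.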

How the results depend on the processing

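Of 172 alternative values of main results, 120 stayed within their limits. No site or cluster ratio changed direction. The median log2 fold change of members did, at 1 ng without RBFOX2 library 2 (-0.34) and between inputs with no scaling (0.65). The order of RBFOX2 and Buffer-only shares changed at 1 ng for the 3′UTR share with scores of 0.9 or more, for the share near UGCAUG (3.23% in RBFOX2 and 3.76% in Buffer-only libraries as reported) with such scores (4.09% in RBFOX2 libraries), within 20 nt (2.62% in RBFOX2 libraries) or 200 nt and without RBFOX2 library 2 (4.50% in RBFOX2 libraries), and for the gene-strand share without PSMD12 (0.347% in RBFOX2 and 0.353% in Buffer-only libraries), without RBFOX2 library 2 (0.360% in RBFOX2 libraries) or without Buffer-only library 3 (0.396% in Buffer-only libraries). At 100 pg it changed for the 3′UTR share with every coding transcript. Of the 47 alternative values for single genes, 44 kept their side of the threshold and 3 passed it: PSMD12 and PSMD10 at 1 ng with no scaling, and PSMD12 on edited reads. Over all alternatives the adjusted p of edgeR or DESeq2 ran from 0.0053 to 0.450 for PSMD12, 0.0216 to 0.721 for PSMD10, 0.104 to 0.598 for PSMD3, 0.0665 to 0.645 for PSMD14, 0.401 to 0.766 for PSMA1 and 0.414 to 0.766 for PSMD11. No scaling took the median log2 fold change of all genes to 1.60 at 1 ng and 0.83 at 100 pg (0.20 and 0.13 with TMM, -0.04 and -0.06 with library totals), and called 4 members at 1 ng, while edited reads called 1. The default filter of edgeR left no member to test.

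The genes called at 1 ng, 31 in the analysis reported, were 1404 with no scaling (1402 higher and 2 lower), 40 with library totals (18 higher and 22 lower), 1 with DESeq2, 101 with no filter (100 higher and 1 lower), 51 with sites in exactly 1 gene, 168 on edited reads and 34 with the default filter (19 higher and 15 lower). At 100 pg, where 1 was called, there were 0 with library totals, DESeq2 size factors, DESeq2 or the default filter, and 6 on edited reads. Between inputs, where 0 were called, DESeq2 called 2, the default filter 4 and no filter 2. Equal replicate numbers did not pair the libraries (correlations of deviations from -0.0346 to 0.0287), and with a replicate block 0 genes were called at 1 ng, 1 at 100 pg, 0 between inputs, and 0 members. The causes of these changes were not tested.

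The share of gene-strand sites in proteasome genes was 0.437% in Buffer-only libraries at 1 ng with a coverage of 10 or more. With 20 or more it was 0.560% in RBFOX2 and 0.550% in Buffer-only libraries at 1 ng, and 0.776% in RBFOX2 and 0.470% in Buffer-only libraries at 100 pg, the 3′UTR share was 34.8% in RBFOX2 and 31.6% in Buffer-only libraries at 1 ng and 29.5% in RBFOX2 libraries at 100 pg, and the share near UGCAUG was 5.08% in Buffer-only libraries at 1 ng. With scores of 0.9 or more, the share of gene-strand sites was 0.249% in RBFOX2 and 0.224% in Buffer-only libraries at 1 ng, the 3′UTR share 21.9% in RBFOX2 and 24.1% in Buffer-only libraries at 1 ng and 29.6% in RBFOX2 libraries at 100 pg, and the share near UGCAUG 4.14% in RBFOX2 libraries at 100 pg and 0.000% in Buffer-only libraries at 1 ng. Within 20 nt the share near the motif was 0.758% in Buffer-only libraries at 1 ng and 1.42% in RBFOX2 libraries at 100 pg, and within 100 nt 8.94% in Buffer-only libraries at 1 ng and 4.56% in RBFOX2 libraries at 100 pg. Within 200 nt it was 11.8% and 11.1% in RBFOX2 and Buffer-only libraries at 1 ng, and 11.5% and 6.53% at 100 pg. For GCAUG it was 7.28% and 9.29% in RBFOX2 and Buffer-only libraries at 1 ng, and 5.57% and 5.05% at 100 pg. With FLARE scores of 0.99 or more the cluster ratio at 1 ng was 1.45. Edited reads gave ratios of 3.40 at 1 ng and 3.51 at 100 pg.

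Chosen after seeing the data were the fit of the difference between inputs, leaving out PSMD12, with 3′UTR shares of 25.3% at 1 ng and 24.2% at 100 pg in RBFOX2 libraries, and regions from every coding transcript, with 56.2% in RBFOX2 and 47.1% in Buffer-only libraries at 1 ng and 45.2% in RBFOX2 and 45.9% in Buffer-only libraries at 100 pg. Leaving out each library in turn gave site ratios of 2.56 to 2.98 at 1 ng and 2.32 to 3.03 at 100 pg, and cluster ratios of 2.22 to 2.57 and 2.20 to 2.80. The gene-strand share ran from 0.360 to 0.413% in RBFOX2 and 0.339 to 0.396% in Buffer-only libraries at 1 ng, and 0.524 to 0.590% in RBFOX2 and 0.299 to 0.376% in Buffer-only libraries at 100 pg, and the 3′UTR share 27.9 to 31.2% in RBFOX2 and 22.8 to 28.4% in Buffer-only libraries at 1 ng, and 26.4 to 27.5% in RBFOX2 and 20.3 to 24.3% in Buffer-only libraries at 100 pg. The share near UGCAUG ran from 1.66 (without the first RBFOX2 library) to 4.50% in RBFOX2 and 3.37 to 4.36% in Buffer-only libraries at 1 ng, and 2.19 to 2.77% in RBFOX2 and 0 to 1.47% in Buffer-only libraries at 100 pg. The genes called ran from 0 (without any 1 Buffer-only library) to 57 and 86 (without RBFOX2 library 3 and 1) at 1 ng, and between 0 and 9 at 100 pg, with 0 members throughout. Site counts of 0 to 19 per gene and library limit every single-gene test.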
